A study of Mus musculus with 8 samples.

Results

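The response of control vector livers to extended resection was read from 4 of the 8 arrays of the series. BALB/c mice aged 8 weeks received rAd.βgal, an adenovirus that carries the bacterial β-galactosidase gene, by penile vein, and 78% of the liver was removed 5 days later. The 2 pre-βgal arrays hold RNA of the lobes taken out at that operation, and the 2 post-βgal arrays hold RNA of the remnant liver 24 h afterwards. Each array pooled the RNA of 3 mice. The other 4 arrays come from mice given rAd.A20, an adenovirus that carries human A20 (the product of TNFAIP3, an inhibitor of NF-κB), with the same resection and sampling (pre-A20 and post-A20). They lent their replicate spread to the fit and give the values set beside the control response. All groups therefore carry an adenovirus, and no array holds liver without vector, without resection or after a sham operation. Resection cannot be told apart from the change of lobe, from the surgery itself, or from the additional day after the vector. By the study's account the vector reaches only a minority of hepatocytes. Where fewer cells of a type and less RNA per cell would give the same lower signal, these bulk arrays cannot separate them.

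After partial hepatectomy the remaining hepatocytes, which are normally quiescent, are primed by cytokines such as TNF and IL6 and by growth factors, pass through G1, and in mice replicate their DNA over the second day after surgery. During the same period the liver mounts an acute phase response, the secretion of a set of plasma proteins driven by IL6 and STAT3, and hepatocytes fill with lipid droplets. Detoxication, bile acid synthesis and fuel storage are hepatocyte functions that the smaller remnant has to share between supply of the body and growth. In its own rAd.βgal livers after this resection, the study placed the start of hepatocyte proliferation later than the second day.

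Of 17790 genes tested, 400 (2.25%) were called in the control vector livers at an adjusted p under 0.05 (limma, 2-sided, Benjamini-Hochberg adjustment over all genes tested). Of these, 267 genes (1.5% of those tested) were higher after resection and 133 (0.748%) were lower, and 3944 genes had an unadjusted p under 0.05. At least a 2-fold change was seen in 151 of the genes that rose and in 80 of those that fell, and at least a 4-fold change in 20 and 10 of them. The median log2 difference was 1.05 among the genes that rose, -1.10 among those that fell and -0.05 over all genes. Log2 differences throughout are after minus before resection on the log2(signal + 16) scale. Each called gene had both post-βgal arrays on one side of both pre-βgal arrays. The background for that property was large, since 20.4% of all genes had both later arrays above both earlier ones and 33.0% had them below. With the arrays centred on their median instead, the split moved to 344 genes higher and 102 lower, and the median over all genes to 0.01. The number of calls rested on which arrays entered the fit. It was 34 without the post-βgal array numbered 1, 60 without the post-βgal array numbered 2 and 667 without the pre-βgal array numbered 2. Leaving out 1 array of the A20 livers, which lowers the degrees of freedom, gave 149 and 148 calls without the pre-A20 arrays numbered 1 and 2, and 139 and 144 without the post-A20 arrays numbered 1 and 2.

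The array numbered 1 of each control group had low RNA integrity, so the agreement of the replicates was examined first. For β-actin the ratio of 3′ to 5′ control signal was 7 on the pre-βgal array numbered 1 and 3.64 on the post-βgal array numbered 1, and lay between 1.27 and 1.62 on the other 6 arrays. The ratio for GAPDH was 3.44 and 1.48 on those arrays and between 0.975 and 1.16 elsewhere. For pyruvate carboxylase it was 10.2 and 8.88 on those arrays, 6.23 on the post-A20 array numbered 1 and between 3.42 and 4.32 on the rest, a less clear split. The replicates ranked genes alike, with a correlation of log2 signal across genes of 0.969 between the pre-βgal arrays and 0.988 between the post-βgal arrays. The median absolute difference between replicates on the log2 scale was 0.185 before and 0.134 after resection, against 0.137 and 0.119 in the A20 livers. Resection differences taken from the arrays numbered 1 and from those numbered 2 correlated across genes with r = 0.735, and differences taken crosswise with r = 0.295. In the latter, the 2 arrays of low integrity stand on opposite sides. All 400 called genes moved in the same direction in both same-numbered differences, which their lack of overlap between groups requires. Their medians were 1.06 and 1.02 for the genes that rose, and -1.09 and -1.14 for those that fell, for arrays numbered 1 and 2 respectively. These genes were called on the same 4 arrays, so neither result is a separate check of the replicates. Without both arrays numbered 1 the fit called 122 genes (87 higher and 35 lower), of which 91 were among the 400, and 2 of the 400 had the opposite sign. The part that RNA integrity plays in single genes was not tested.

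**Figure D1:**
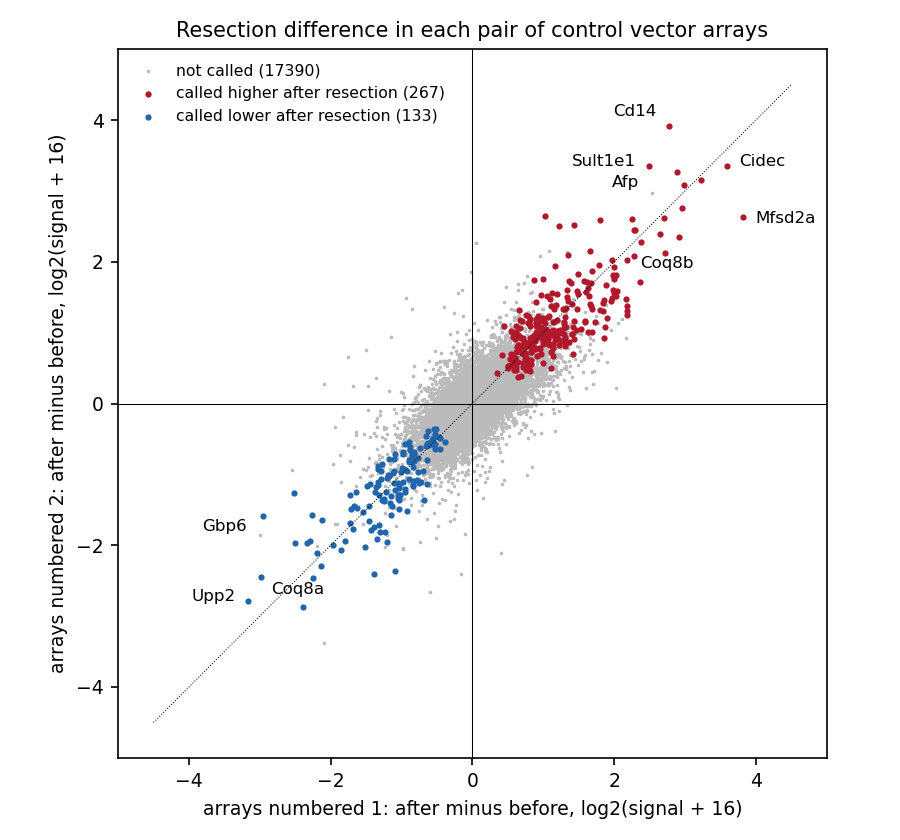
Log2 difference, after minus before resection, of each of 17790 genes from the control vector arrays numbered 1 (x axis, the arrays of low RNA integrity) and numbered 2 (y axis). The 267 genes called higher (red) and the 133 called lower (blue) lie at the upper right and the lower left, and the dotted line marks equal differences.

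The tissue carried the marks of liver on every array. Albumin (Alb) gave signals of 18117 and 18975 before resection and 18349 and 19268 after it, with Apoa1, a lipoprotein component, between 15496 and 18296 and Ttr, a plasma carrier protein, between 15633 and 18061. None of these 3 was called. In the list of 17 hepatocyte genes tested, 1 gene (Fgb) was called higher (5.88%, against 1.5% of all genes), none lower, and the median log2 difference was 0.02. In the paragraphs that follow, pairs of signals are given with the array numbered 1 first.

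Largest of the rises among called genes was that of Cidec, which encodes a protein that fuses lipid droplets. Its signal was 94.5 and 99.4 before resection and 1318 and 1165 after it, a log2 difference of 3.47 ± 0.19 (SE, n = 2 arrays per group, adjusted p = 0.000835). The later arrays stood far above the earlier ones, without overlap. Cd14, the co-receptor for bacterial lipopolysaccharide on macrophages and also made by stressed hepatocytes, went from 766 and 343.5 to 5353 and 5405 (3.35 ± 0.32, adjusted p = 0.00583). Mfsd2a, a transporter of lysophosphatidylcholine induced by fasting in liver, went from 236 and 421 to 3555 and 2690 (3.23 ± 0.36, adjusted p = 0.0106). Both were high on each later array. Thbd (thrombomodulin, an anticoagulant receptor) rose from 54.6 and 46.0 to 648 and 537, and Cd24a, a surface protein of progenitor and immune cells, rose from 162 and 125 to 1291 and 1336. These log2 differences were 3.20 and 3.07. Nnmt, which methylates nicotinamide, rose from 909 and 645 to 7316 and 5597, and Sult1e1, the estrogen sulfotransferase, from 42.2 and 49.5 to 311 and 650. Sult1e1 had the widest gap between its later arrays of these genes, with an adjusted p of 0.0432. Bmper, a secreted modulator of bone morphogenetic proteins, was among the most even: 112 and 122 before and 982 and 919 after resection, a log2 difference of 2.86 ± 0.14 (adjusted p = 0.000835). Completing the 12 largest rises among called genes were Fabp4 (2.66), a fatty acid carrier of adipocytes and macrophages, Scara5 (2.63), a ferritin receptor, Saa2 (2.52), a serum amyloid, and Rab30 (2.42), a Golgi GTPase.

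Among the called falls, Upp2, a liver uridine phosphorylase that degrades pyrimidine nucleosides, changed most. It went from 1255 and 1158 to 125 and 154, a log2 difference of -2.98 ± 0.17 (adjusted p = 0.000835), with an even pair of arrays in each group. Coq8a, a mitochondrial kinase-like protein needed for coenzyme Q synthesis, went from 3479 and 2746 to 425 and 488 (-2.72 ± 0.18, adjusted p = 0.0015). Hsd3b3, a steroid dehydrogenase, went from 1528 and 2117 to 279 and 276 (-2.63). It was read through a probe set that can also bind other members of its family, so which member fell is uncertain. Klkb1, the gene of plasma prekallikrein, a protease of the contact system, went from 2538 and 2725 to 523 and 481 (-2.35). Car5a, the mitochondrial carbonic anhydrase that feeds bicarbonate to the urea cycle and to gluconeogenesis, fell from 1300 and 1142 to 283 and 221. Acss2, the cytosolic acetyl-CoA synthetase, fell from 1482 and 756 to 282 and 181. Abcb11, the bile salt export pump of the canalicular membrane, fell from 4012 and 3290 to 809 and 846. Their log2 differences were -2.21, -2.15 and -2.11. The remaining falls among the 12 largest of called genes were C730049O14Rik (-2.27), Apol7a (-2.23), of the apolipoprotein L family, Abca8a (-2.15), a lipid transporter, Tcea3 (-1.99), an elongation factor of transcription, and Ppp1r3c (-1.96), which targets protein phosphatase 1 to glycogen. Outside the 12 and chosen after its value was seen, Coq8b, the paralog of Coq8a, moved the other way, from 512 and 400 to 2383 and 1678 (2.10 ± 0.21, adjusted p = 0.00594).

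Probe sets of 1 gene did not always move alike. A second Coq8a probe set, with signals of 364 and 458 before and 289 and 317 after, differed by -0.41. Fabp4 was seen through 4 probe sets, of which 2 rose (2.66 and 2.79) and 2 did not (0.01 and -0.15). A second Scara5 probe set differed by 0.03 and a second Rab30 probe set by 0.48. Over the 400 called genes, 172 had another probe set above the signal filter, and in 119 of them every other probe set had the same sign. Of the 299 other probe sets, 229 had the same sign, with a median difference 0.318 times that of the one read for the gene, the brightest by rule.

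**Figure D2:**
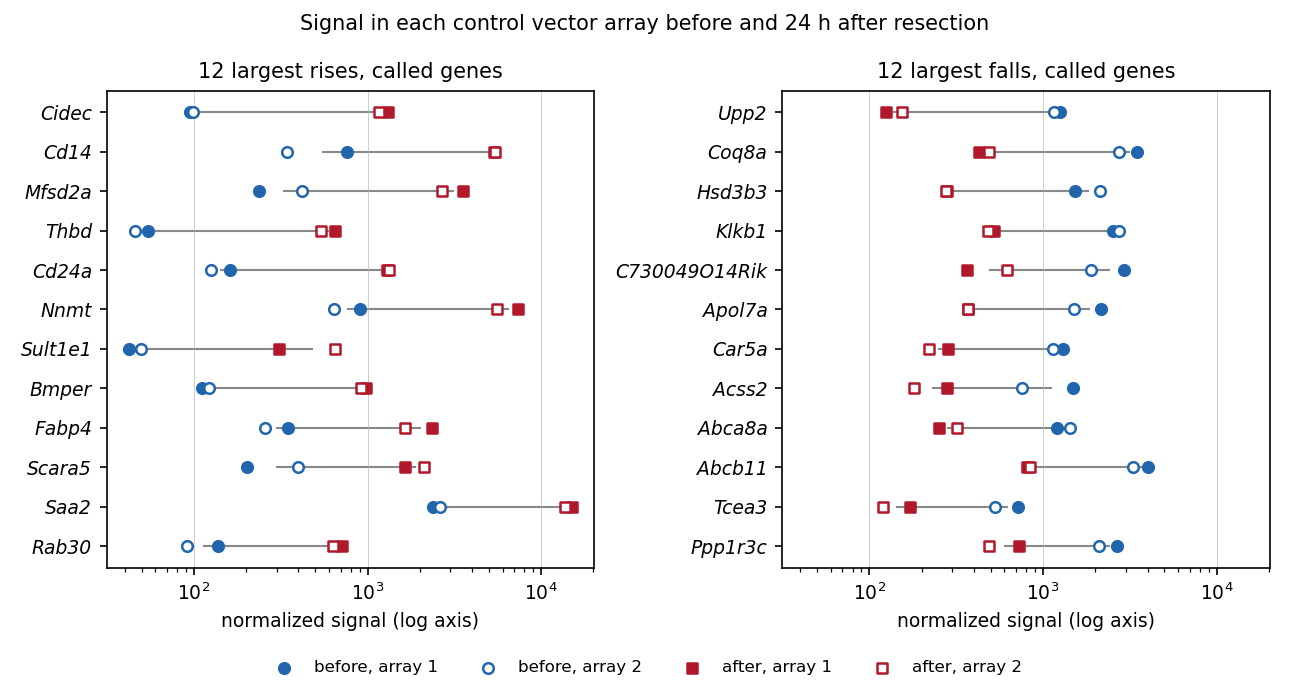
Normalized signal (log axis) of the 12 called genes with the largest rises and the 12 with the largest falls on each control vector array, with a line from the mean before (blue circles) to the mean after resection (red squares). In all 24 genes both later arrays lie on one side of both earlier arrays, which the choice of genes required. Cidec rose from 94.5 and 99.4 to 1318 and 1165, and Upp2 fell from 1255 and 1158 to 125 and 154.

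Acute phase genes were called in 1 direction. Of 29 tested, 9 rose and none fell, a share of 31.0% against 1.5% of all genes called higher, and the median log2 difference of the list was 0.48 (0.41 from arrays numbered 1 and 0.57 from arrays numbered 2) against -0.05 over all genes. Lcn2 (lipocalin 2, an iron-siderophore trap) rose from 2622 and 2871 to 13762 and 14005, a log2 difference of 2.33 ± 0.34 (adjusted p = 0.0211). Serpina3n, a serine protease inhibitor, rose from 3856 and 4875 to 14023 and 13502 (1.66), and Orm3, an orosomucoid, from 158 and 164 to 523 and 542 (1.63). The members Orm1 (1.17) and Orm2 (1.72) rose too. Orosomucoids and serum amyloids are near-identical families, so the share of each member is uncertain. The fibrinogen chains Fgb (0.70) and Fgg (0.66) rose by less, from signals between 9291 and 11881 to signals between 15637 and 18281. Saa1 had a log2 difference of 1.5 (adjusted p = 0.0844), Apcs, serum amyloid P, 0.86 (adjusted p = 0.0512) and Hp, haptoglobin, 0.39 (adjusted p = 0.127). Before resection Saa1 had 6378 and 5800 and Hp 17462 and 14301, the latter near the top of the range of these arrays. The called members Fgb and Fgg also had high signals before resection, and whether level bore on the calls was not tested. Without both arrays numbered 1, 2 of the 9 calls, Cd14 and Orm3, passed the threshold.

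In the list of IL6 and STAT3 signalling 2 of 19 genes (10.5%, against 2.25% of all genes) were called, and both, named after their values were seen, were higher. Osmr, the oncostatin M receptor, rose from 163 and 99.0 to 312 and 370 (1.31 ± 0.20, adjusted p = 0.0251), although 2 other probe sets differed by 0.25 and 0.17. Fgl1, a secreted hepatokine, rose from 5220 and 5091 to 9778 and 9832 (0.93). Of 26 NF-κB targets and regulators 1 was called (3.85%, near the 2.25% of all genes), also named after its value was seen. It was Il1r1, the signalling receptor for interleukin 1, which rose from 314 and 490 to 1298 and 1481 (1.78). The same direction held for Il1r2, the decoy receptor that binds interleukin 1 without signalling, at 94.2 and 116 before and 426 and 431 after resection (1.88 ± 0.12, adjusted p = 0.00113).

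Il1r2 belongs to the list of neutrophil genes, in which 3 of 18 (16.7%, against 1.5% of all genes) were called higher and none lower, with a median log2 difference of 0.18. The 3 were Il1r2, Mmp8 and Lcn2. Mmp8, the neutrophil collagenase, rose from 154 and 152 to 372 and 472 (1.37 ± 0.13, adjusted p = 0.00507). The calprotectin chains S100a8, at 976 and 554 before and 1634 and 1837 after (1.22, adjusted p = 0.0672), and S100a9 (1.12, adjusted p = 0.0753) did not pass. Without both arrays numbered 1 S100a8 did. Cxcr2, a chemokine receptor that defines circulating neutrophils, went in the other direction, from 732 and 869 to 483 and 550, without passing (-0.61, adjusted p = 0.123). The summed signal of the 18 genes rose from 9029 and 8326 to 21610 and 23142, of which Lcn2, which hepatocytes make as well, gave 13762 and 14005 on the later arrays. How far neutrophils contributed to the acute phase values was not tested.

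Interferon response genes gave 1 call in 2 lists, where 2.25% of all genes were called. Of 28 IFNγ targets none was called, yet the median log2 difference was -0.82, with -1.07 from arrays numbered 1 and -0.45 from arrays numbered 2, and 19 of the 28 had both later arrays below both earlier ones, against 33.0% of all genes. Gbp6, an interferon-induced GTPase chosen here after its value was seen, had 6347 and 4467 before and 779 and 1217 after (-2.43 ± 0.65, adjusted p = 0.098). Irf1, the transcription factor of that response, likewise chosen after its value was seen, had a log2 difference of -1.19 (adjusted p = 0.177), and Psmb9, an immunoproteasome subunit, one of -1.21 (adjusted p = 0.162). On the post-A20 arrays, whose spread enters the same fit, Gbp6 was 4736 and 903. In the type I interferon list 1 of 23 fell, Mx1, from 155 and 161 to 95.6 and 103 (-0.60).

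No member of the cell cycle lists was called 24 h after resection. Of 26 genes of G1 and G1/S control, 44 of DNA replication and 44 of mitosis, none passed the test in either direction. Over all genes 2.25% passed, so few calls would fall in lists of this size at that share. Of the 44 replication genes 36 had a log2 difference above 0, a share that was not counted over all genes. The median log2 differences were -0.09, 0.25 and -0.03 respectively, and in the replication list 27 of 44 genes had both later arrays above both earlier ones, a share to be read against 20.4% of all genes. Mcm4, a subunit of the replicative helicase, had 645 and 716 before and 1144 and 1233 after (0.79 ± 0.24, adjusted p = 0.12). Pcna, the sliding clamp of DNA polymerases, had 1687 and 3751 before and 3763 and 5275 after (0.82, adjusted p = 0.277), a difference from array to array as large as that of resection. Cyclin E2 (Ccne2, 0.85, adjusted p = 0.117) and Cdk2 (0.70, adjusted p = 0.0648), partners at the entry into S phase, lay higher without passing. Cyclin D1 (Ccnd1), a G1 cyclin that growth factors induce, did not: 511 and 338 before and 316 and 275 after, a log2 difference of -0.48 ± 0.46 (adjusted p = 0.573). Tk1, thymidine kinase, had 778 and 772 before and 449 and 431 after (-0.80, adjusted p = 0.0876). Cdk1, the mitotic kinase (0.47, adjusted p = 0.228), and Top2a, the topoisomerase of dividing cells (0.27, adjusted p = 0.399), had small differences. Cdkn1a, the p21 inhibitor of cyclin-dependent kinases, had 3560 and 2700 before and 4669 and 3864 after (0.45 ± 0.22, adjusted p = 0.275). By PCR on single mice the study reported a significant rise of this gene after resection with either vector.

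Genes of ribosome biogenesis, which supplies the protein synthesis of growing cells, were among the rises. Of 58 tested, 5 (8.62%) rose, against 1.5% of all genes, and none fell. The median log2 difference was 0.45 (0.44 and 0.49 from arrays numbered 1 and 2), and 37 of 58 had both later arrays above both earlier ones, against 20.4% of all genes. Nop58, a core protein of box C/D small nucleolar particles, rose from 153 and 260 to 494 and 593, a log2 difference of 1.37 ± 0.23 (adjusted p = 0.0345). Gnl2, a nucleolar GTPase of large subunit assembly, rose from 561 and 364 to 1218 and 1045 (1.29), and Ddx21, a nucleolar RNA helicase, from 477 and 291 to 1006 and 864 (1.29). Npm1, nucleophosmin, went from 1221 and 1556 to 3014 and 2901 (1.09), and Polr1e, a subunit of RNA polymerase I, from 114 and 148 to 330 and 249 (1.06). Each of the 5 had separated groups, as every called gene did. Ncl, nucleolin (0.73, adjusted p = 0.213), and Fbl, fibrillarin (0.11, adjusted p = 0.852), did not pass. Only Ddx21 of the 5 passed without both arrays numbered 1. In the list of actin, tubulin and cell shape 4 of 29 (13.8%, against 1.5% of all genes) rose (median 0.37). These, named after their values were seen, were the tubulins Tubb6 (1.08) and Tubb2b (0.97) and the annexins Anxa2 (0.96) and Anxa3 (0.67). A second Tubb6 probe set differed by 0.00, and one of Anxa2 by -0.28.

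Among growth factors and their receptors, 1 of 26 rose and 1 fell (median -0.12), where 1.5% and 0.748% of all genes did, and neither call held without both arrays numbered 1. The fall was that of Klb, β-Klotho, the co-receptor through which FGF19 family hormones act on hepatocytes, from 389 and 448 to 182 and 188, a log2 difference of -1.11 ± 0.19 (adjusted p = 0.0324). Its ligand Fgf21, a fasting and stress hormone of the liver, rose from 329 and 288 to 495 and 589 (0.78 ± 0.15, adjusted p = 0.0418). A second Klb probe set differed by -0.20. The classical hepatocyte mitogens and receptors did not pass: Hgf, hepatocyte growth factor, differed by 0.26 (adjusted p = 0.456), its receptor Met by 0.25 (adjusted p = 0.363) and Egfr, the EGF receptor, by 0.47 (adjusted p = 0.195). Egfr depended on the probe set, since 2 dimmer ones rose by 1.71 and 1.46 (adjusted p over all probe sets of 0.0464 and 0.0349). The brighter of those had 406 and 411 before and 1138 and 1163 after.

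In the list of TGFβ, activin and BMP signalling 3 of 33 (9.09%, against 1.5% of all genes) rose, none fell, and the median was 0.08. Beside Bmper these were Inhbe, the subunit of activin E, made mainly by liver, from 294 and 307 to 819 and 704 (1.29 ± 0.25, adjusted p = 0.0459), and Fst, follistatin, which binds and blocks activins, from 230 and 209 to 441 and 480 (1.02 ± 0.12, adjusted p = 0.0127). An activin subunit and an activin antagonist were both higher. Tgfb1 itself, an inhibitor of hepatocyte growth, had 464 and 375 before and 330 and 345 after (-0.30, adjusted p = 0.395). Of 19 genes of the growth hormone axis 2 (10.5%, against 0.748% of all genes) fell. Ghr, the growth hormone receptor, fell from 3747 and 4270 to 1818 and 1512 (-1.26 ± 0.16, adjusted p = 0.0165), and Igfals, the acid-labile subunit that stabilizes circulating IGF1, from 961 and 1237 to 379 and 342 (-1.56 ± 0.19, adjusted p = 0.013). Both calls held without both arrays numbered 1. Other Ghr probe sets differed by -0.45 and -0.72, without passing (adjusted p over all probe sets of 0.351 and 0.519).

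**Figure D3:**
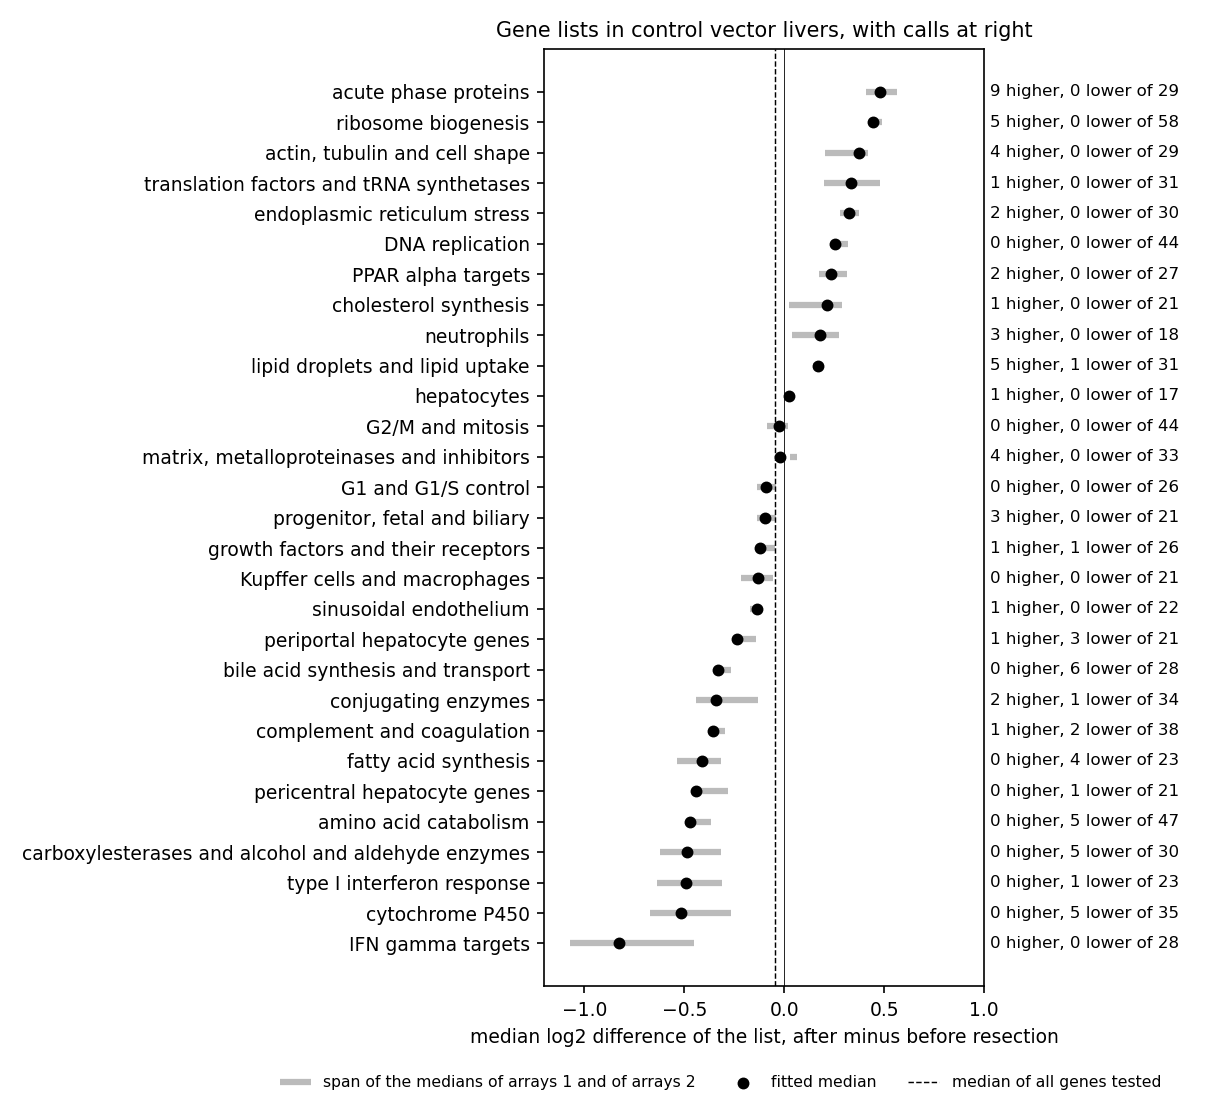
Median log2 difference, after minus before resection, of gene lists in control vector livers (dots), with grey bars that span the medians from the arrays numbered 1 and numbered 2, and the number of members called at the right. Acute phase proteins (0.48) and ribosome biogenesis (0.45) stand highest against the median of all genes (dashed line, -0.05), and IFNγ targets (-0.82) and cytochrome P450 (-0.52) lowest among the lists drawn.

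Genes of fat handling were called in both directions. Of 31 genes for lipid droplets and lipid uptake 5 rose and 1 fell, with a median of 0.17. Of 23 for fatty acid synthesis none rose and 4 fell, with a median of -0.41. Over all genes 1.5% rose and 0.748% fell, and no test compared the lists. Cidec, Mfsd2a and Fabp4, given above, led the rises. Plin4, a coat protein of lipid droplets, rose from 270 and 195 to 1112 and 722, a log2 difference of 1.90 ± 0.24 (adjusted p = 0.0152). Lpin1, a phosphatidate phosphatase of triglyceride synthesis and a coactivator of PPARα, rose from 503 and 387 to 2095 and 1143 (1.77, adjusted p = 0.0373). The 1 member that fell was Dgat2, which makes the last step of triglyceride synthesis, from 6623 and 6029 to 3320 and 3212 (-0.95 ± 0.14, adjusted p = 0.0211). Lpin1 and Dgat2 complete the calls of the list and were named after their values were seen. Plin2, the main droplet coat protein of hepatocytes, had 8727 and 6155 before and 13474 and 12155 after (0.80, adjusted p = 0.0753), Plin5, the coat protein of oxidative tissues, differed by 1.12 (adjusted p = 0.172), and the fatty acid receptor Cd36 by -0.05.

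The called genes of fatty acid synthesis included its regulators. Srebf1, the sterol regulatory factor that drives lipogenic genes under insulin, fell from 2966 and 3526 to 1090 and 1016, a log2 difference of -1.61 ± 0.20 (adjusted p = 0.0151). Mlxipl (ChREBP), which drives them under glucose, fell from 3035 and 2465 to 943 and 892 (-1.56 ± 0.29, adjusted p = 0.0406). Thrsp (Spot 14), a lipogenic protein that both control, fell from 4125 and 4716 to 1865 and 1724 (-1.29), and Acss2 is given above. The groups were apart in each, as in every called gene. The enzymes themselves lay lower with separate groups for Fasn, fatty acid synthase, at 4056 and 3021 before and 2108 and 1584 after (-0.93, adjusted p = 0.0887), and for Acly, ATP citrate lyase (-1.14, adjusted p = 0.107). A dimmer Acly probe set, at 3065 and 3243 before and 1619 and 1377 after, differed by -1.07 (adjusted p over all probe sets = 0.0432). Its remaining probe sets differed by values from -0.11 to -1.10, without passing. Acaca, acetyl-CoA carboxylase, overlapped (-0.74, adjusted p = 0.251). In this list no gene had both later arrays above the earlier ones, as 20.4% of all genes did. Srebf1 and Acss2 were still called without both arrays numbered 1, Mlxipl and Thrsp were not. On the side of fuel use, Pdk4, the kinase that spares glucose by blocking pyruvate dehydrogenase and a PPARα target, rose from 305 and 191 to 735 and 1154 (1.87 ± 0.29, adjusted p = 0.0264). Fgf21 was the other of the 2 called among 27 PPARα targets (7.41%, against 2.25% of all genes). Apoa4, an apolipoprotein induced in fatty and fasted liver, rose from 3970 and 2612 to 15559 and 10708 (2.00 ± 0.25, adjusted p = 0.0151).

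Bile acid genes were called in 1 direction. Of 28 tested 6 (21.4%) fell, against 0.748% of all genes, and none rose. The median was -0.33, and none had both later arrays above the earlier ones, as 20.4% of all genes did. Cyp7a1, the rate-limiting enzyme of bile acid synthesis, fell from 608 and 1150 to 229 and 293, a log2 difference of -1.63 ± 0.29 (adjusted p = 0.0394). Cyp8b1, the 12α-hydroxylase that sets the share of cholic acid, fell from 3440 and 3275 to 1479 and 831 (-1.58), and Akr1d1, the 5β-reductase that shapes the steroid ring, from 2201 and 1841 to 657 and 645 (-1.61). Export was touched as well, through Abcb11 and through Abcg8, one component of the sterol transporter of the canaliculus, which fell from 896 and 601 to 361 and 326 (-1.06). The sixth gene was Nr0b2 (SHP), a nuclear receptor that the bile acid receptor induces and that represses Cyp7a1. It fell from 2150 and 1120 to 362 and 456 (-1.89 ± 0.37, adjusted p = 0.048), so repressor and target fell in the same livers. Nr1h4 (FXR), that bile acid receptor, had 823 and 925 before and 808 and 883 after (-0.05, adjusted p = 0.884). Slc10a1, the uptake transporter NTCP, differed by -0.61 (adjusted p = 0.256). With median centring Nr0b2 and Abcg8 no longer passed, and without both arrays numbered 1 Abcb11, Cyp7a1 and Cyp8b1 did. In that last setting 1 other gene of the list was called higher.

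**Figure D4:**
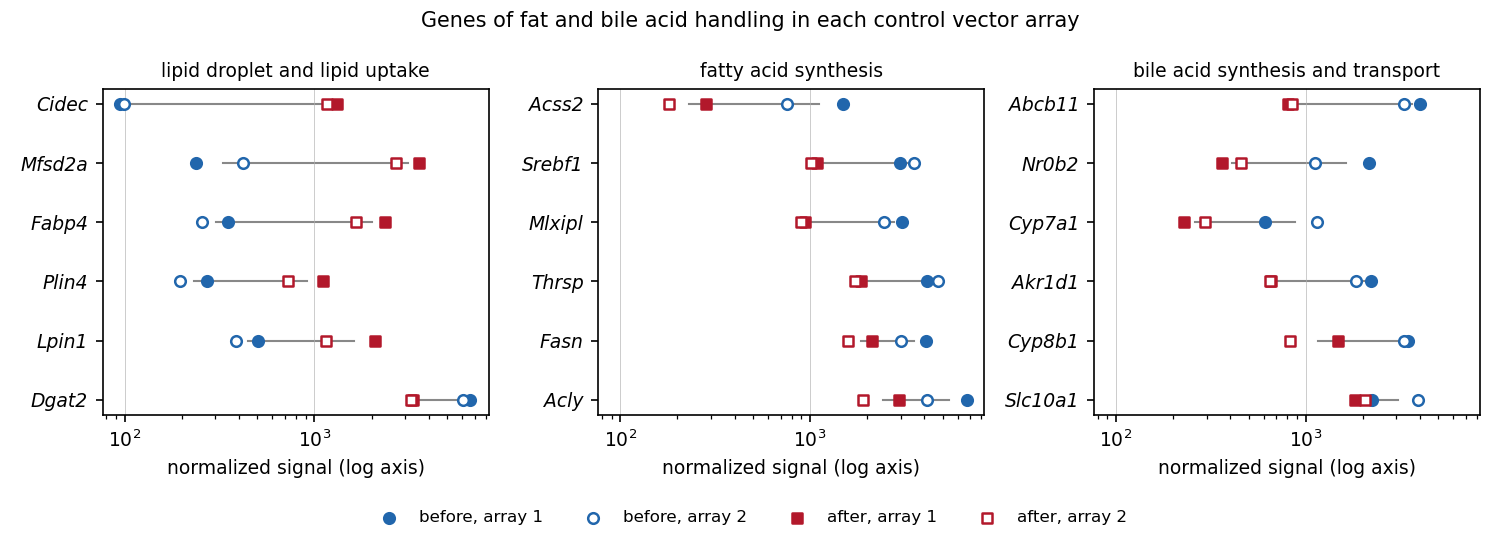
Normalized signal (log axis) on each control vector array of genes for lipid droplets and lipid uptake, fatty acid synthesis, and bile acid synthesis and transport, before (blue circles) and after resection (red squares), with lines between group means. Droplet genes from Cidec to Lpin1 lie higher after resection and Dgat2 lower, and the synthesis and bile acid genes lie lower, with Fasn, Acly and Slc10a1 not passing the test.

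Enzymes of detoxication and amino acid breakdown lay lower as lists. Of 35 cytochrome P450 genes 5 (14.3%, against 0.748% of all genes) fell, of which Cyp8b1 and Cyp2c23 were still called without both arrays numbered 1, and none rose (median -0.52, from -0.27 on arrays numbered 1 and -0.67 on arrays numbered 2). Besides Cyp8b1 these were Cyp4f15, a fatty acid hydroxylase, from 1786 and 1422 to 638 and 509 (-1.46), Cyp2b9, a female-biased drug-metabolizing form, from 652 and 564 to 197 and 228 (-1.45), Cyp2c23, an epoxygenase, from 397 and 537 to 203 and 177 (-1.22), and Cyp2u1, a fatty acid hydroxylase, from 343 and 299 to 200 and 188 (-0.68). P450 genes are a family with close paralogs, and single members are uncertain. The abundant drug-metabolizing forms did not pass: Cyp2e1 had 10100 and 11121 before and 9781 and 8292 after (-0.23, adjusted p = 0.329), Cyp3a11 differed by -0.17 (adjusted p = 0.413) and Cyp1a2 by -0.96 (adjusted p = 0.149).

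Among 30 carboxylesterases, alcohol and aldehyde enzymes 5 (16.7%, against 0.748% of all genes) fell and none rose (median -0.49), and without both arrays numbered 1 the call of Ces1g alone held. Adh1, the main ethanol and retinol dehydrogenase of liver, fell from 12039 and 11347 to 5516 and 5757, a log2 difference of -1.05 ± 0.11 (adjusted p = 0.00914), an even change at high signal. Adh4, a related dehydrogenase, went from 744 and 669 to 316 and 324 (-1.10), Dhrs3, which reduces retinal, from 2074 and 1318 to 419 and 434 (-1.92), Aldh1b1, a mitochondrial aldehyde dehydrogenase, from 794 and 844 to 324 and 322 (-1.30) and Ces1g, an esterase of triglyceride turnover, from 1289 and 1316 to 618 and 501 (-1.2). Of 34 conjugating enzymes 8.82% were called, against 2.25% of all genes: 2 rose, Sult1e1 and Nnmt, and 1 fell. The fall was that of Gstm3, a glutathione transferase, from 5504 and 5133 to 3107 and 3115 (-0.77 ± 0.15, adjusted p = 0.0477).

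Amino acid catabolism had 5 falls (10.6%, against 0.748% of all genes) and no rise among 47 genes (median -0.47), and without both arrays numbered 1 the call of Dpys alone held. Csad, which makes the taurine precursor hypotaurine, fell from 4000 and 3830 to 1201 and 1185, a log2 difference of -1.70 ± 0.21 (adjusted p = 0.0151). Dpys, of pyrimidine breakdown, fell from 1481 and 1510 to 584 and 451 (-1.51), Haao, of the kynurenine branch that leads from tryptophan to NAD, from 4528 and 3674 to 2004 and 1382 (-1.29), Sardh, sarcosine dehydrogenase, from 3839 and 3617 to 1792 and 1545 (-1.16) and Hpd, of tyrosine breakdown, from 9603 and 9212 to 5809 and 4258 (-0.92). Upp2 and Dpys both degrade pyrimidines, and both fell. In NAD metabolism, of 20 genes (median -0.045), Nnmt and Bst1 rose and Haao fell, where 2.25% of all genes were called. Bst1, an ADP-ribosyl cyclase, rose from 82.2 and 81.3 to 109 and 115 (0.39 ± 0.08, adjusted p = 0.0481), the smallest of the called changes named. Among 15 genes of the urea cycle and glutamine only Car5a was called (6.67%, against 2.25% of all genes), and Arg1, the hepatocyte arginase, differed by 1.19 (adjusted p = 0.123). Arg2, the mitochondrial arginase of extrahepatic tissue, chosen after its value was seen, rose from 77.0 and 65.2 to 284 and 282 (1.78 ± 0.10, adjusted p = 0.000868).

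Zonal and sex-linked hepatocyte genes were called in both directions. Of 21 periportal genes, Apoa4 rose and Hsd17b6, a hydroxysteroid dehydrogenase (-1.73), Etnppl, which breaks down phosphoethanolamine (-1.30), and G6pc, glucose 6-phosphatase of gluconeogenesis, fell. A second Hsd17b6 probe set differed by -0.06. G6pc went from 3433 and 3964 to 1910 and 1773 (adjusted p = 0.0486). Of 21 pericentral genes 1 fell, Gstm3, and the list median was -0.44. Of 13 female-biased genes Sult1e1 and Prom1 rose and Cyp2b9 fell. Of 15 male-biased genes 1 fell, and all 15 log2 differences were below 0 (median -0.30, against -0.05 over all genes). The share of all genes below 0 was not counted. Hsd3b5, a male-biased steroid dehydrogenase, had 492 and 372 before and 119 and 104 after (-1.80, adjusted p = 0.079).

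Markers of progenitor, fetal and biliary cells gave 3 rises (14.3%, against 1.5% of all genes) and no fall among 21 genes (median -0.10). Cd24a is given above, Ly6d, a surface protein of lymphoid and stressed epithelial cells, rose from 565 and 631 to 2807 and 2735, a log2 difference of 2.18 ± 0.36 (adjusted p = 0.031), and Prom1 (CD133), a progenitor surface protein, from 69.8 and 66.6 to 155 and 175 (1.10 ± 0.16, adjusted p = 0.0203). α-Fetoprotein (Afp), the classical fetal hepatocyte product, had 119 and 37.2 before and 768 and 401 after. Its later arrays were above its earlier ones, yet the log2 difference of 2.75 ± 1.04 did not pass (adjusted p = 0.179), and the same probe set read 97.4 and 1464 on the post-A20 arrays. The cholangiocyte list held 0 rises among 13 genes, and 1 fall (7.69%, against 0.748% of all genes), of Pkhd1, fibrocystin, from 158 and 128 to 82.3 and 73.9 (-0.75). The summed signal of that list was 3799 and 4155 before and 3260 and 3676 after resection.

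Other cell types left few calls. Of 21 genes of Kupffer cells and macrophages, 20 of T and NK cells, 8 of erythroid cells and 9 of mesothelium none was called, where 2.25% of all genes were. The resident macrophage markers Clec4f (0.17, adjusted p = 0.624) and Adgre1, F4/80 (-0.37, adjusted p = 0.192), had small differences of opposite sign, and the summed signal of the macrophage list was 15578 and 15484 before and 11928 and 14875 after. In sinusoidal endothelium 1 of 22 rose: Lyve1, a hyaluronan receptor of sinusoids and lymphatics, from 180 and 174 to 660 and 719, a log2 difference of 1.87 ± 0.20 (adjusted p = 0.00952). In stellate cells and fibroblasts 1 of 18 fell: Colec11, a collectin, from 613 and 486 to 245 and 180 (-1.32). Among 11 B and plasma cell genes Cd79b, a chain of the B cell receptor complex, rose from 87.5 and 75.7 to 134 and 127 (0.58). The medians of these 3 lists were -0.14, -0.13 and -0.08. Their shares called, 1 gene in each, were 4.55%, 5.56% and 9.09%, against 2.25% of all genes. In matrix, metalloproteinases and inhibitors 4 of 33 (12.1%, against 1.5% of all genes) rose. The 3 besides Mmp8 were named after their values were seen: Adamts1, a secreted protease (1.32), Mmp14, a membrane-bound collagenase (0.78), and Tgm2, tissue transglutaminase (0.94).

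Genes that the study followed by PCR, and the mouse gene of A20, were looked up whatever their values. Tnfaip3, that mouse gene, which the primers for the human transgene do not target, had 927 and 574 before and 366 and 531 after, a log2 difference of -0.71 ± 0.39 (adjusted p = 0.317). A second probe set differed by -0.08. Ubd, an interferon-induced ubiquitin-like modifier, had a log2 difference of -0.74 (adjusted p = 0.49), Ppara, the fatty acid sensor, -0.05 (adjusted p = 0.936) and Slc25a10, the dicarboxylate carrier of mitochondria, -0.53 (adjusted p = 0.216). Cpt1a, which admits fatty acids to mitochondria for oxidation, had 606 and 1901 before and 2160 and 3142 after (1.26 ± 0.51, adjusted p = 0.201). Slc25a13, the aspartate-glutamate carrier, had 461 and 1688 before and 805 and 1198 after (0.15, adjusted p = 0.89). For Cpt1a and Slc25a13, through the probe sets read for these genes, the low array was the pre-βgal array numbered 1. Other Cpt1a probe sets were higher on that array, at 696 and 399 and at 230 and 130 before resection. They differed by 0.77 and 0.62, without passing (adjusted p over all probe sets of 0.22 and 0.335). Lepr, the leptin receptor, again depended on the probe set. The brightest differed by 0.05 (adjusted p = 0.828). Another, at 39.7 and 23.0 before and 387 and 290 after, rose by 2.91 ± 0.21 (adjusted p over all probe sets = 0.00241), and one more, at 20.9 and 25.0 before and 98.6 and 203 after, rose by 2.03 (adjusted p over all probe sets = 0.0238). Probe sets of 1 gene can read different transcript forms, and which forms these bind was not examined. By PCR on single mice the study reported that A20 prevented a fall of Ppara after resection and abrogated a rise of Lepr. It also described a smaller decrease of Ppara and Cpt1a in A20 livers than in βgal livers. On these pooled arrays Ppara differed by -0.05 and Cpt1a by 1.26, neither passing. Why arrays and PCR differ was not tested.

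The 250 bases before the start of each called gene were read from the RefSeq promoter table of GRCm38.p6, which matched 207 of the 267 genes that rose, 107 of the 133 that fell and 14135 of all genes tested. Windows of 4 genes are shown because they belong to the regulators and the receptor described above and hold the E-box letters CACGTG, to which basic helix-loop-helix factors such as MLX and USF bind. Capitals mark the E-box letters, the TATA box letters TATAAA, and the CCAAT box, which in these windows reads as its reverse complement (ATTGG). The windows are chr5:135089640-135089889 (plus strand) for Mlxipl, chr4:133553126-133553375 (plus) for Nr0b2, chr19:36736605-36736854 (minus) for Ppp1r3c and chr1:40085843-40086092 (plus) for Il1r2, each written 5′ to 3′ on the strand of the gene.
Mlxipl: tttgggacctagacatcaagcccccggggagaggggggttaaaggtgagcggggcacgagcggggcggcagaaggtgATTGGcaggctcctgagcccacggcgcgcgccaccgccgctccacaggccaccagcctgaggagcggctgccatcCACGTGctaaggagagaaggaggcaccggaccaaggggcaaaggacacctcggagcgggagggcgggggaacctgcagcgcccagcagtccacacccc
Nr0b2: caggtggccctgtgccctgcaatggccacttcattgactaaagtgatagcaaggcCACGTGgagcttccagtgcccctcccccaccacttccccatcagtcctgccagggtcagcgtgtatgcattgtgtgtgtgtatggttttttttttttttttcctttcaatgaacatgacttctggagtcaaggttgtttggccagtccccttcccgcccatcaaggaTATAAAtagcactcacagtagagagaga
Ppp1r3c: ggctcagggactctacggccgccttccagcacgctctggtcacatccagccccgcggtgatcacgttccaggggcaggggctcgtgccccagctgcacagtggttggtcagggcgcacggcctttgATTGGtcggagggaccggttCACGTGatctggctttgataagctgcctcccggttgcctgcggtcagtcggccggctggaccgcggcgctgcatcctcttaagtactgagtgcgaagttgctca
Il1r2: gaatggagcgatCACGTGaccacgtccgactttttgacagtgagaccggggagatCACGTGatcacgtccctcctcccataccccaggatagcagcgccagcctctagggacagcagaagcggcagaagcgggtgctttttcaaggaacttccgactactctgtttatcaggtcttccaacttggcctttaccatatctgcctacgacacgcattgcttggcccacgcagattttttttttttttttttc
The table holds another start of Mlxipl, whose window (chr5:135106641-135106890, plus strand) has none of the 11 motifs. In the windows shown, CACGTG lies 98 bases before the start in Mlxipl, 195 in Nr0b2, 104 in Ppp1r3c, and 238 and 195 in Il1r2, and the TATAAA of Nr0b2 lies 28 bases before its start. On either strand the letters CACGTG were found in 8.21% of the windows of genes that rose, 8.41% of those of genes that fell and 8.79% of all windows. TATAAA was found in 7.73%, 16.8% and 10.4%, and CCAAT in 36.2%, 50.5% and 39.2%. Of the 11 motifs searched, these 3 were the most frequent. The other 8 were the cyclic AMP element TGACGTCA, the E2F forms TTTCGCGC and TTTGGCGC, the NF-κB forms GGGACTTTC and GGGAATTTC, the STAT forms TTCCGGGAA and TTCTGGGAA, and the D-box form TTATGTAA, each in at most 1.93% of windows of called genes. Genes of the table with more than 1 start numbered 2632, and a match of letters is a description, not a site.

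Beside the control livers, A20 livers gave 180 calls for resection, 112 higher (0.63%) and 68 lower (0.382%). The number rested on single arrays, from 6 without the post-A20 array numbered 2 and 10 without the pre-A20 array numbered 2 to 474 without either pre-βgal array. Of the genes called higher in control livers 53 were also called higher in A20 livers, a share of 19.9% of the former and 47.3% of the latter, and 17 genes fell in both (12.8% and 25%). In A20 livers 237 of the 267 genes and 122 of the 133 lay on the same side of 0, with medians of 0.44 and -0.52 against 0.02 over all genes. That last median is close to 0, so genes as a whole lay on both sides of it, and their share on each side was not counted. Because the genes were chosen for a large control difference, smaller values elsewhere are built into the choice. The 2 comparisons share no array, but they share each gene's variance. The test of the difference between the responses called 0 of 17790 genes with limma. It had an unadjusted p under 0.05 for 2788 genes, 224 of them among the 400, and the smallest adjusted p was 0.0646.

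That smallest value belonged to Il1r2 and Arg2. Il1r2 was 84.2 and 90 before and 88.5 and 107 after resection in A20 livers (log2 difference 0.14), and Arg2 was 54.6 and 62.1 before and 71.7 and 81.5 after (0.32), against 1.88 and 1.78 in control livers. Cidec rose in both sets of livers (3.47 and 2.98), as did Bmper (2.86 and 2.44), and Upp2 fell in both (-2.98 and -2.15). For Coq8a the values were -2.72 in control and -0.58 in A20 livers, for Coq8b 2.10 and 0.36, and for Abcb11 -2.11 and -0.07. The adjusted p of the difference was 0.109 for Coq8a, 0.212 for Coq8b and 0.108 for Abcb11, so none of these passed. For other genes the value was larger in A20 livers, again without passing the test of the difference. Lcn2 differed by 2.33 in control and 5.26 in A20 livers, where its before signals were lower, at 209 and 493, and Saa2 by 2.52 and 5.30. Thrsp differed by -1.29 and -2.74, from before signals of 9399 and 11530 in A20 livers. The adjusted p of the difference was 0.212 for each of Lcn2, Saa2 and Thrsp. Slc39a10, a zinc importer chosen after its values were seen, rose in control livers from 79.6 and 139 to 417 and 365 (1.74), and in A20 livers had 313 and 328 before and 154 and 189 after (-0.85, adjusted p of the difference 0.108). Lpin1 had 1.77 and -0.44 (adjusted p of the difference 0.212).

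**Figure D5:**
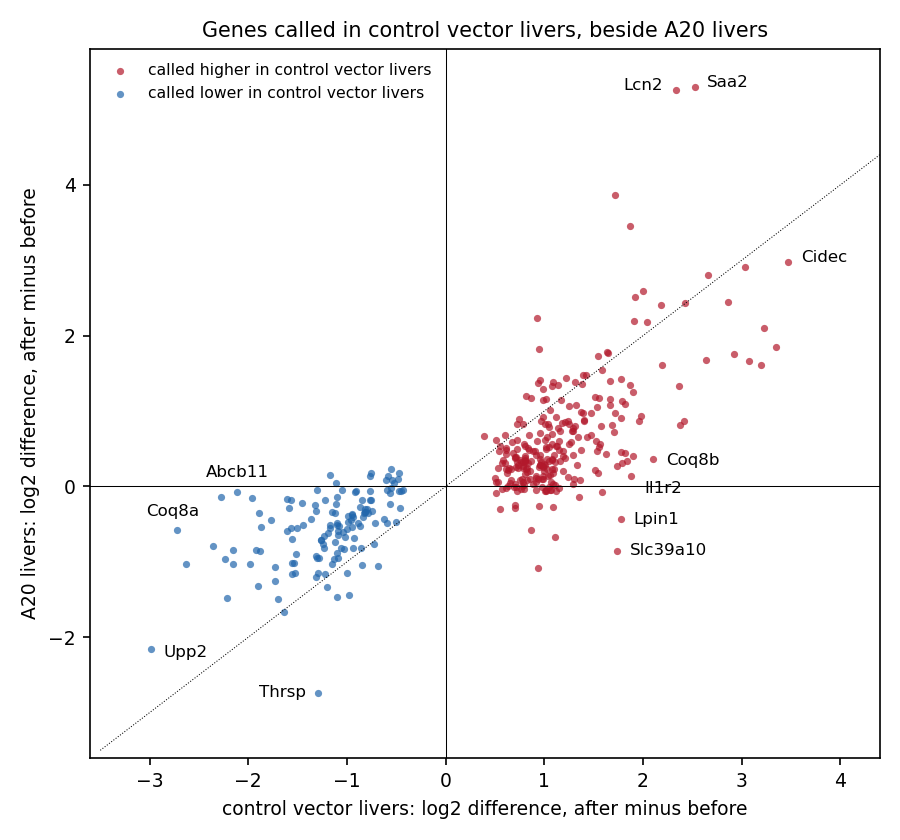
Log2 difference, after minus before resection, of the 400 genes called in control vector livers, in those livers (x axis) and in A20 livers (y axis), with the genes that rose in red and those that fell in blue. Most lie on the same side of 0 in both, 237 of 267 and 122 of 133, where the median of all genes in A20 livers was 0.02. Lcn2 and Saa2 lie above the dotted line of equal differences, while Coq8a (-2.72 and -0.58), Coq8b (2.10 and 0.36), Abcb11 (-2.11 and -0.07) and Il1r2 (1.88 and 0.14) lie nearer 0 in A20 than in control livers.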

How the data were processed

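RNA of 3 mice per array was hybridised to 8 Affymetrix Mouse Genome 430 2.0 arrays, 2 per group. The authors deposited normalized linear intensities, 1 per probe set and array. The methods name dChip (invariant set normalization, perfect-match probes) and the sample records name MAS5, and the sources used here do not say which made the table. Array medians lay between 153 and 166. Low RNA integrity weakens signal far from the 3′ end. Of 45101 probe sets, 34945 had 1 symbol in the platform annotation, 932 several and 9160 none. Probe sets with a group mean of at least 40 stayed in (42703), and the brightest one stands for its gene. Differences were tested with limma 3.58.1 (R 4.3.3) on log2(signal + 16) over all 8 arrays with moderated variances and a trend (4 residual degrees of freedom), and called at a Benjamini-Hochberg adjusted p under 0.05. The procedure was tested on simulated data. Summaries and plots used Python 3.11.15, pandas 2.3.3, numpy 2.4.6 and matplotlib 3.10.9. The number of arrays limits the precision.

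The labels do not say which pools share mice, so p-values measure the spread between pools, and in the post-A20 records the treatment wording is that of βgal. Genes were named by rule: the 12 largest rises and falls among called genes, of each described list up to 4 called members and 3 defining ones that were not called, 7 mouse genes that the study measured by PCR, the mouse gene of A20, and markers of cell types. Other names, such as called members of a list beyond its 4 largest changes, were chosen after their values were seen. The comparison and its 59 lists were chosen with earlier results of these data known. Alternatives covered scaling, the signal filter, the offset, the variance model, the array pairing, RNA integrity, arrays left out and the summary of a gene. Moderation of variances over 1 probe set per gene, and all alternatives for the A20 livers, were chosen after seeing the data.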

Additional observations from a re-analysis of the deposited data

How the results depend on the processing

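The 400 calls in control vector livers lay between 371 and 570 under other scalings, filters and offsets, without a variance trend, with a robust prior, and under an interval rule. That rule asked for a lower bound of the 90% interval of the fold change of at least 1.5, the threshold of the study's methods. Here the bound came from limma and not from dChip, so it is not the study's measure. Under those settings other than the interval rule 342 to 397 of the same genes stayed called, with no sign turned. The count was 638 with the mean over a gene's probe sets, 710 with variances moderated over 1 probe set per gene, 2362 with RNA integrity as a covariate, 122 without both control arrays numbered 1, and 8 when only the 4 control vector arrays were fitted. Leaving out 1 array gave 34 to 667 calls, where the lone array of a group is assumed to vary like the others. For the difference between vectors the count of 0 became 1 with quantile normalization, 2 with median centring, 3 with an offset of 32, 4 with the probe set mean, 5 with moderation over 1 probe set per gene, 125 with the covariate, and 0 to 12 with 1 array left out. For A20 livers the 180 calls became 275 with the probe set mean, 358 with moderation over 1 probe set per gene, 1052 with the covariate, 500 without both control arrays numbered 1, and 6 to 474 with 1 array left out. The cause of these moves was not tested.

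The replicate numbers are not said to pair the arrays. With the number as a block within vector the counts were 1585 for control livers, 24 for the difference and 686 for A20 livers, and no named gene lost its call. Of the 50 named genes that were not called, the block newly called 18 and the RNA integrity covariate 20. The deviations of the same-numbered control arrays correlated with r = 0.617 across genes, from 2 pairs only.

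Of the 155 genes named, 105 were called. In all of the first-named settings of scaling, filter, offset and variance 86 of these kept the call, 45 kept it without both control arrays numbered 1, and 17 kept it in each of the 8 fits with 1 array left out. These were Cidec, Cd14, Cd24a, Bmper, Fabp4, Rab30, Upp2, Coq8a, Hsd3b3, Klkb1, Car5a, Abcb11, Il1r2, Mmp8, Coq8b, Arg2 and Orm3. The 1 sign that turned was that of Atp10a, to 0.022 with the mean over its probe sets. With 2 pooled arrays per group, the spread of each gene rests on few values.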

Other observations

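Called genes whose symbols differ in the last letter or number alone were set side by side, since such symbols often mark paralogs. There were 25 pairs, of which 19 moved in the same direction and 6 in opposite ones. Pairs of the same direction included Orm1, Orm2 and Orm3 and the interleukin 1 receptors Il1r1 and Il1r2. The opposite pairs were Coq8a (-2.72) and Coq8b (2.10), Ppp1r3c (-1.96) and Ppp1r3g (0.93), both glycogen-targeting subunits of protein phosphatase 1, Fkbp4 (-1.09) and Fkbp5 (1.13), both immunophilin partners of steroid receptors, Adamts7 (-0.72) and Adamts1 (1.32), both secreted proteases, Ttc39c (-1.09) and Ttc39a (1.27), and Atp10a (-0.55) and Atp10d (1.04), both phospholipid flippases.

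Fkbp5, which glucocorticoids induce, went from 902 and 1040 to 2228 and 2064 (adjusted p = 0.0391), and Fkbp4 from 1461 and 1839 to 702 and 827 (adjusted p = 0.0391). Other Fkbp4 probe sets differed by -0.07 and -0.21. Ppp1r3g went from 73.0 and 57.7 to 129 and 149 while Ppp1r3c went from 2668 and 2115 to 725 and 491, and in A20 livers their log2 differences were -1.08 and -0.15. Atp10a was read through a probe set that can bind other transcripts, and its 3 other probe sets differed by 0.28, 0.10 and 0.27. Such pairs were picked by symbol after the calls were known, so they are given as values.

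In complement and coagulation, of 38 genes 1 rose and 2 fell (7.89% called, against 2.25% of all genes). Thbd rose, Klkb1 fell, and Serpind1, heparin cofactor II, an inhibitor of thrombin named after its value was seen, fell from 2738 and 5093 to 1035 and 1504 (-1.57, adjusted p = 0.0454).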
